A study of Mus musculus with 4 samples.

Results

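The lung RNA-Seq of mice given dabigatran alone was compared here with that of mice given vehicle, gene by gene. Genes with at least 1 FPKM (a level given in sequenced fragments per kilobase, after scaling for depth) in either of the 2 libraries were taken, which were 13373 of the 17780 genes listed (75.2%). Of these, 13022 reached 1 FPKM in both libraries, 173 in the vehicle library alone and 178 in the dabigatran library alone.

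The study followed amiodarone-induced lung injury in mice and asked whether dabigatran alters it, and the series holds 4 lung libraries, 1 each from mice given vehicle, dabigatran, amiodarone or both drugs. Both groups compared were male mice, C57BL/6 per the labels and C57BL/6J per the methods, that were 6 to 7 weeks old at the start and had received no amiodarone. One group was given dabigatran etexilate orally at 60 mg per kg and the other the carboxymethylcellulose solution (0.5%) in which it was suspended, 5 times per week for 4 weeks. The labels give 28 days of treatment and the methods date the tissue to day 26. RNA was made from whole lung tissue, of the left lung per the methods, so that every cell type of the lung and its attached vessels contributes to each value. Whether a library was made from 1 mouse or from several is not given in the sources used here.

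Thrombin is the last protease of the coagulation cascade. It cleaves fibrinogen to fibrin, and it also signals to platelets, endothelial cells and fibroblasts by cutting protease-activated receptors. Dabigatran etexilate is a prodrug that is opened by carboxylesterases and carried by P-glycoprotein, and its product dabigatran blocks the active site of thrombin reversibly, on the protein and not on the gene.

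Each group had 1 library, so there was no replicate check and no p-value is given. Differences are given as log2((dabigatran + 1)/(vehicle + 1)) of the FPKM values, which understates the change of low genes, or as a ratio of FPKM values with a 95% interval (exact Clopper-Pearson) from the reads of the 2 libraries. These intervals cover counting error only, and they compare the 2 libraries, not the conditions. A gene is called higher or lower when the difference on the log2 scale reached that of 1.5-fold. The reads assigned to genes summed to 17498486 with vehicle and 17752873 with dabigatran, and the 10 genes with most reads took 10.4% and 9.18% of them.

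The 2 libraries were close to each other over all genes. The median log2 difference was 0.0006 and the median absolute difference 0.095, and the central 95% of genes lay between -0.36 and 0.34. With dabigatran, 6696 genes (50.1%) were higher and 6614 (49.5%) lower. The interval of the ratio lay apart from 1 in 3825 genes (28.6%). In all, 60 genes were called higher at 1.5-fold, 0.449% of those tested, and 67 were called lower, 0.501%. At 2-fold these were 12 genes (0.0897%) and 9 genes (0.0673%). Most called genes were low: 43 of the 60 and 51 of the 67 were under 10 FPKM in both libraries. The interval lay apart from 1 in 60 of the 60 and in 64 of the 67. Among all 4 libraries, vehicle had the highest value in 56 of the 67 genes called lower and dabigatran the lowest in 36. Of the 60 called higher, vehicle had the lowest value in 42 and dabigatran the highest in 38. These ranks follow in part from the calls, which used the same vehicle and dabigatran values. The shares over all genes were not counted. Next to the limit of 1 FPKM, the 145 genes just inside it (highest value 1 to 1.1 FPKM) had a median absolute log2 difference of 0.15 and the 98 just outside it (0.9 to 1 FPKM) one of 0.12.

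**Figure D1:**
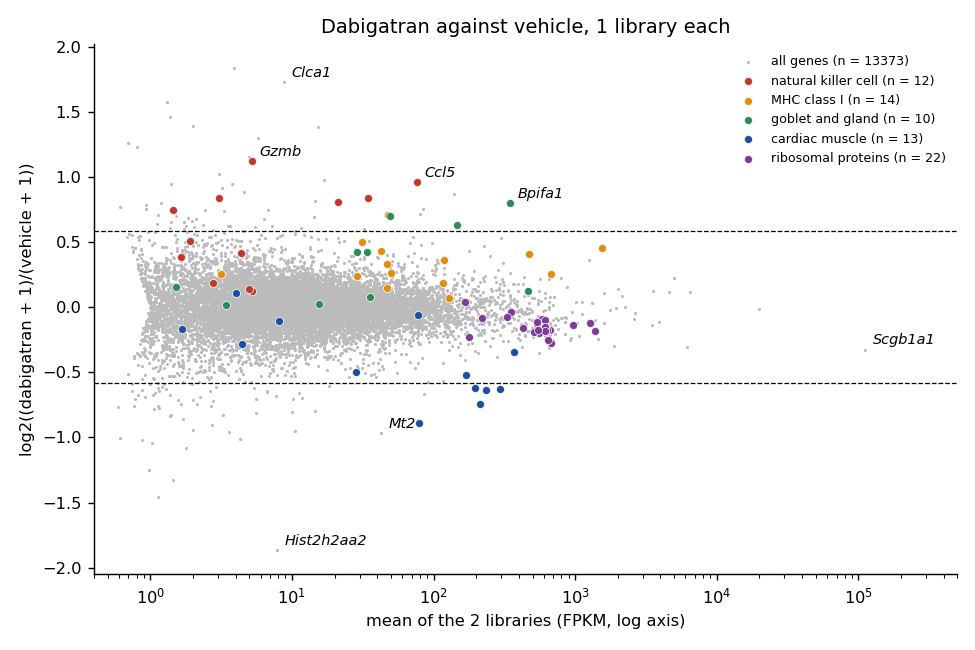
Log2 difference between the dabigatran and vehicle libraries of each gene (vertical axis) against the mean of its 2 FPKM values (horizontal log axis), with members of 5 gene lists in colour and dashed lines at 1.5-fold. The natural killer cell list lies above 0 and most of the cardiac muscle list below it, while most of the 13373 genes lie within the lines.

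To see which groups of genes these were, 64 gene lists for lung cell types, pathways and programmes were read out, and 754 of their genes were measured. Of those, 21 were called higher and 11 lower, where 0.449% and 0.501% of all 13373 genes were. These shares also stand beside the counts of called members in each list below. The lists were chosen with earlier results of these data known, so they are no random draw from all genes. In 45 of the 64 lists no member was called, and among the 60 lists with 3 or more measured members the median log2 difference was within 0.1 of 0 in 34 and within 0.2 in 50. Medians above 0.2 were those of the natural killer cell, MHC class I, goblet and gland, interferon-gamma GTPase, interferon response, red blood cell and collagen lists, and medians below -0.2 those of the cardiac muscle, liver plasma protein and neutrophil lists. That of the liver list was -0.34 over 5 genes, 3 of them near 1 or 2 FPKM, and became -0.05 with a filter of 5 FPKM.

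**Figure D2:**
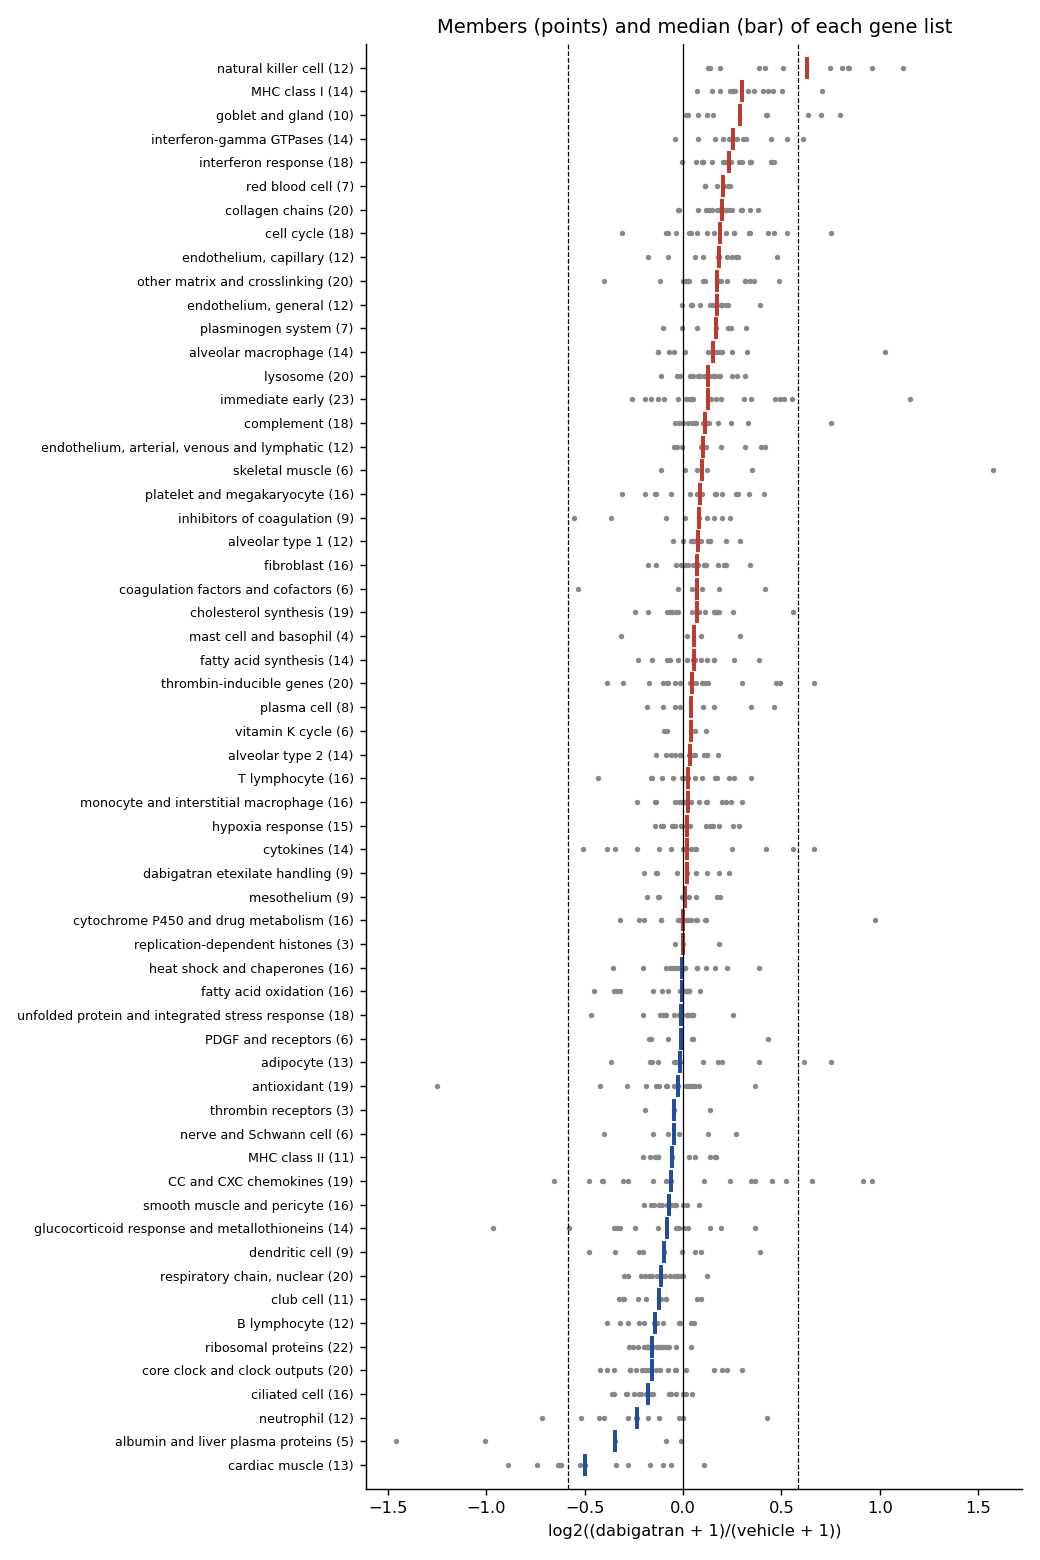
Log2 difference between the dabigatran and vehicle libraries for each measured member (points) and the median (bars, red above and blue below 0) of the 60 gene lists with 3 or more measured members, whose number is in brackets; dashed lines mark 1.5-fold. The natural killer cell list has the highest median (0.63) and the cardiac muscle list the lowest (-0.50), and the thrombin receptors lie close to 0.

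The tissue label was held against lung markers first. In both libraries the surfactant protein gene Sftpc of alveolar type 2 cells (20077 and 19876 FPKM with vehicle and dabigatran), Ager of type 1 cells (2250 and 2248 FPKM) and Scgb1a1 of club cells were among the abundant transcripts. The 14 alveolar type 2 genes had a median log2 difference of 0.03, with 8 higher and 6 lower, and the 12 alveolar type 1 genes one of 0.07. No gene of either list was called.

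The genes of the thrombin system itself differed little. F2r, which encodes the main thrombin receptor PAR1 (chr13:95601780-95618466, GRCm38.p6), was at 90.42 FPKM with vehicle and 99.39 FPKM with dabigatran, and the interval of the ratio was 1.06 to 1.14. F2rl1, the receptor PAR2, was at 10.58 and 10.22 FPKM, and F2rl2, the cofactor receptor PAR3, at 1.42 and 1.12 FPKM. F2rl3, the platelet receptor PAR4, was below 1 FPKM in both libraries. None of the 3 measured receptors was called. Prothrombin itself (F2), which is made in the liver, was at 0.52 FPKM with vehicle and 0.43 FPKM with dabigatran.

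No clotting factor, inhibitor or fibrinolysis gene was called either. Among 6 measured coagulation factors and cofactors, tissue factor (F3), which starts coagulation, was at 40.73 and 40.02 FPKM with vehicle and dabigatran. The widest gaps in that list were those of Vwf, the endothelial platelet adhesion protein (62.37 and 83.52 FPKM, ratio 1.34, 1.30 to 1.38), and F13a1, the fibrin-crosslinking subunit that macrophages also make (7.31 and 4.75 FPKM, ratio 0.650, 0.563 to 0.749). Among 9 inhibitors of coagulation, thrombomodulin (Thbd), which turns thrombin towards protein C, was at 197.99 and 226.89 FPKM, and the protein C receptor gene Procr at 5.19 and 3.22 FPKM. Procr was thus lower and Thbd higher, each by less than 1.5-fold on the log2 scale used. The absence of calls depends on that scale. Without the added 1 FPKM, the ratios of F13a1 and Procr (0.620, 0.465 to 0.824) were past 1.5-fold. So was that of the protein C gene Proc (1.06 and 0.6 FPKM, ratio 0.566, 0.287 to 1.08). The 7 genes of the plasminogen system had a median log2 difference of 0.17, and the plasminogen activator gene Plat was at 15.23 and 18.22 FPKM. The 6 genes of the vitamin K cycle, the target of the other class of oral anticoagulants, had a median of 0.04.

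Of 20 measured genes that thrombin is known to induce, 1 was called, Csf2. This growth factor gene for granulocytes and macrophages had 22 reads with vehicle and 44 with dabigatran (1.29 and 2.63 FPKM). In direction the list was divided, with 12 genes higher and 8 lower and a median log2 difference of 0.05. Intervals lay apart from 1 in 7 higher and 2 lower genes. Cyr61, a matricellular protein gene, was at 189.13 and 262.84 FPKM and the nuclear receptor gene Nr4a1 at 81.36 and 115.06 FPKM. Il1b (5.05 and 3.63 FPKM) was lower. Edn1 (17.88 and 16.59 FPKM) and Ccl2 (1.53 and 1.05 FPKM) were also lower, with intervals that held 1. The 16 platelet and megakaryocyte genes had a median of 0.09 and no called member. The platelet chemokine genes went different ways, Ppbp at 31.77 FPKM with vehicle and 40.3 FPKM with dabigatran and Pf4 at 28.22 and 22.55 FPKM.

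Of the platelet-derived growth factor (PDGF) genes, the study followed the receptor gene Pdgfra and the ligand gene Pdgfc by quantitative RT-PCR, and the rest of the family is given beside them. None of the 6 measured genes was called. Pdgfc was below 1 FPKM in both libraries, at 0.92 FPKM with vehicle and 0.8 FPKM with dabigatran. Pdgfa was at 94.27 FPKM with vehicle and 89.49 FPKM with dabigatran, Pdgfb at 85.82 and 88.75 FPKM, and Pdgfra at 42.04 and 43.54 FPKM. The largest difference among the 6 was that of the ligand gene Pdgfd, at 5.73 and 8.06 FPKM (ratio 1.41, 1.22 to 1.63). Pdgfrb, the receptor of mural cells, was at 44.59 and 39.73 FPKM, and the receptor-like gene Pdgfrl at 3.03 and 2.57 FPKM.

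The 9 genes that handle the prodrug were also without a call. Ces1d, an abundant carboxylesterase of lung, was at 321.86 FPKM with vehicle and 292.61 FPKM with dabigatran, and its relatives Ces1e (8.13 and 6.96 FPKM), Ces1f (6.61 and 6.96 FPKM), Ces1g (4.52 and 4.03 FPKM), Ces2e (1.34 and 1.55 FPKM) and Ces2g (10.17 and 11.69 FPKM) moved to either side. The P-glycoprotein gene Abcb1a was at 11.13 and 11.28 FPKM, its second copy Abcb1b at 0.92 and 1.26 FPKM, and the exporter gene Abcg2 at 9.08 and 8.85 FPKM.

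Cytotoxic lymphocyte genes formed the clearest group that was higher with dabigatran. Natural killer cells and effector T cells kill target cells with granzymes that enter through perforin pores. All 12 measured genes of the natural killer cell list were higher, 6 of them were called, 9 had intervals apart from 1, and the median log2 difference was 0.63. Their FPKM values summed to 115.3 with vehicle and 210.2 with dabigatran.

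The promoters of the called members are shown because these genes stood together. Shown are the 250 bases upstream of the start in the RefSeq annotation of GRCm38.p6, read 5′ to 3′ on the strand of the gene, for 4 of the 6: Ncr1 (chr7:4337465-4337714, + strand), Gzma (chr13:113100982-113101231, - strand), Gzmb (chr14:56262335-56262584, - strand) and Nkg7 (chr7:43436888-43437137, + strand). For Ccl5 and Klrg1 no window was used here. Capitals mark the letters TGTGGT on either strand, the core bound by RUNX factors.
Ncr1: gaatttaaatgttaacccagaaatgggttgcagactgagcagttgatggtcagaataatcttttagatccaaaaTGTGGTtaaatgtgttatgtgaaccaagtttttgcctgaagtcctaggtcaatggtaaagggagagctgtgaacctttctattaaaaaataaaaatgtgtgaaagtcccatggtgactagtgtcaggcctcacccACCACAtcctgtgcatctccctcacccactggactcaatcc
Gzma: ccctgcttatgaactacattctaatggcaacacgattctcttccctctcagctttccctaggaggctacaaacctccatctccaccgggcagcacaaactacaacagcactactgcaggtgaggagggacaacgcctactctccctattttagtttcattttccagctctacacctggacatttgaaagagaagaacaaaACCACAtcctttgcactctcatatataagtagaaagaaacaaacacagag
Gzmb: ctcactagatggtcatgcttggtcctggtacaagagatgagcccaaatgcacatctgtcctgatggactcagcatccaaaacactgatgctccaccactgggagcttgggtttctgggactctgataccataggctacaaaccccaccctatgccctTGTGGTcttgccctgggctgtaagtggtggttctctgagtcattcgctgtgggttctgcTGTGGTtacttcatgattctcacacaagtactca
Nkg7: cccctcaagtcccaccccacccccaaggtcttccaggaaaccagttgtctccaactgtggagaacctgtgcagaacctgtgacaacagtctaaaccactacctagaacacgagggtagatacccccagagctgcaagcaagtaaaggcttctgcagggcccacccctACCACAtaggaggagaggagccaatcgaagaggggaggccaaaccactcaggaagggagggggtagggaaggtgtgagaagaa
The RUNX core was found in 4 of 4 windows and in 14.0% of all 32851 promoter windows of this length. The T-box core TCACAC was in 3 of 4 (12.3% of all windows), the AP-1 site TGACTCA in 1 of 4 (4.46%) and the ETS core GGAAGT in 0 of 4 (19.7%), each counted on both strands. In these 4 windows no matches of different motifs overlapped. The motifs were chosen after the values were seen, and a match is a description of the sequence only.

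Ccl5 (chr11:83525778-83530518), a chemokine of activated cytotoxic cells, was at 51.55 FPKM with vehicle and 101.25 FPKM with dabigatran, a ratio of 1.96 (1.75 to 2.21). Granzyme A (Gzma, chr13:113093824-113100981) was at 24.56 and 44.77 FPKM (ratio 1.82, 1.60 to 2.08). Granzyme B (Gzmb, chr14:56258836-56262334) was at 2.93 and 7.53 FPKM, with 70 and 182 reads (ratio 2.57, 1.94 to 3.44). In each of these the dabigatran library was above the vehicle library by more than the counting error. Nkg7, a granule membrane protein gene, was at 15.04 and 27.08 FPKM (ratio 1.80, 1.51 to 2.15), and Ncr1, which encodes the activating receptor NKp46, at 1.91 and 4.2 FPKM (interval of the ratio 1.55 to 3.17). Klrg1, a receptor of mature effector cells, had 19 and 48 reads.

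The other 6 members were higher by less. Perforin (Prf1) was at 3.59 and 5.13 FPKM, whereas the receptor genes Klrd1 (4.94 and 5.48 FPKM), Klra8 (4.71 and 5.28 FPKM) and Klrb1c (2.52 and 3.01 FPKM) had intervals that held 1. Among further cytotoxic genes that were picked after their values were seen, Tbx21, the gene of the factor T-bet, was at 1.19 and 2.37 FPKM and Ms4a4b at 10.64 and 17.85 FPKM. Gzmk had 1 read with vehicle and 20 with dabigatran, a ratio of 19.1 with a counting interval of 3.06 to 793. The general T lymphocyte list did not share the difference. Its 16 genes had a median log2 difference of 0.02, Cd3e was at 4.63 and 4.65 FPKM, and Cd8a at 3.25 and 3.32 FPKM. In bulk tissue, more cells of a type and more RNA per cell cannot be told apart.

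Genes of antigen presentation by MHC class I were higher by a smaller factor but without exception in the list. All 14 genes were higher, each with an interval apart from 1, and the median log2 difference was 0.30. The light chain gene B2m was at 1301 FPKM with vehicle and 1786 FPKM with dabigatran (ratio 1.37, 1.35 to 1.40), the heavy chain gene H2-K1 at 406.96 and 538.99 FPKM (ratio 1.32, 1.29 to 1.36) and H2-D1 at 614.22 and 732.71 FPKM. The immunoproteasome subunit genes Psmb8 (41.7 and 52.74 FPKM) and Psmb9 (36.07 and 49.04 FPKM) and the peptide transporter gene Tap1 (26.17 and 31.1 FPKM) were also higher. H2-Q7 was the 1 called member, at 36.07 and 59.52 FPKM. Since reads of the near-identical H2-Q genes are divided between them by estimation, H2-Q6, H2-Q7, H2-Q8 and H2-Q9 were also added up, a sum chosen after the values were seen, which was 78.03 FPKM with vehicle and 131.8 FPKM with dabigatran (ratio of reads 1.66, 1.56 to 1.77). MHC class II genes did not share the pattern: of 11, 5 were higher and 6 lower, with a median of -0.06.

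Most interferon-responsive genes of the lists were higher, and 1 was called. Of 18 genes of the interferon response, 17 were higher and none was called, with a median log2 difference of 0.23 and values such as Oasl2 at 27.26 and 30.26 FPKM and Oas1a at 7.39 and 10.44 FPKM. Of 14 GTPase genes induced by interferon-gamma, 13 were higher, with a median of 0.25. Gbp4 was the 1 called, at 8.93 and 14.13 FPKM. Outside these lists, the interferon-induced gene Ifi27l2a was called higher, at 60.92 and 100.65 FPKM (ratio 1.65, 1.47 to 1.87). Relatives of interferon-induced genes, named after their values were seen, were also called higher: Gvin1 (4.82 and 8.76 FPKM), Ifi206 (2.57 and 4.49 FPKM), Ifit1bl1 (2.65 and 4.61 FPKM) and Gm12250 (1.38 and 2.81 FPKM). The reads of Gbp4, Gvin1 and Ifi206 were not whole.

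Chemokine and cytokine genes went both ways. Of 19 chemokine genes, Ccl5, Ccl4 and Cxcl13 were called higher and Ccl7 lower. Cxcl13, which attracts B cells, had 37 reads with vehicle and 88 with dabigatran (1.91 and 4.49 FPKM), and the monocyte attractant Ccl7 had 20 and 8 reads. Among 14 cytokine genes Csf2 alone was called, 7 were higher and 7 lower.

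Defence proteins secreted by the airway and its glands were higher with dabigatran. The 10 genes of the goblet and gland list were all higher, 6 with intervals apart from 1 and 3 called, with a median log2 difference of 0.29. Bpifa1 (chr2:154142880-154149217), a lipid-binding defence protein of the upper airway, was at 254.67 FPKM with vehicle and 443.23 FPKM with dabigatran (ratio 1.74, 1.68 to 1.80). Its neighbour Bpifb1 was at 115.21 and 179.32 FPKM (ratio 1.56, 1.49 to 1.63). The antibacterial lectin gene Reg3g was at 37.29 and 61.21 FPKM (ratio 1.64, 1.46 to 1.85). Clca1 (chr3:145004537-145032776), a secreted goblet cell protein gene outside the list, had the highest ratio among genes of 10 FPKM or more, at 3.53 and 13.99 FPKM (ratio 3.96, 3.36 to 4.70). The mucin gene Muc5b (15.4 and 15.67 FPKM) and Agr2 (3.41 and 3.45 FPKM) were nearly level.

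Club and ciliated cell genes were lower in the same libraries, none past 1.5-fold. Of 11 club cell genes 9 were lower, and Scgb1a1, the gene with the highest level in both libraries, was at 124168 FPKM with vehicle and 99032 FPKM with dabigatran. Of 16 ciliated cell genes 14 were lower, with a median log2 difference of -0.18, among them Tppp3 at 523.5 and 467.88 FPKM and Foxj1, the regulator of motile cilia, at 73.22 and 65.86 FPKM. The vehicle library had the highest of all 4 values in 9 of the 11 and 14 of the 16. Lists that are lower with dabigatran lean towards this rank, and its share over all genes was not counted.

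Matrix and endothelial genes were higher by small steps. Of 20 collagen chain genes 18 were higher, 16 with intervals apart from 1, with a median of 0.20 and none called: Col1a1 was at 93.44 and 115.29 FPKM, Col3a1 at 95.56 and 121.03 FPKM and Col4a1 at 152.44 and 176.45 FPKM. Other matrix genes were higher in 17 of 20, with a median of 0.17. Of 12 general endothelial genes 11 were higher, with a median of 0.17, among them Eng, a coreceptor of vascular signalling, at 215.59 and 283.02 FPKM and Pecam1 at 257.88 and 294.47 FPKM. Of 12 capillary genes 10 were higher. The 16 fibroblast genes had a median of 0.07 and the 16 smooth muscle and pericyte genes one of -0.07, with 14 lower.

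Heart muscle genes were the clearest group that was lower. Mouse pulmonary veins are sheathed in heart muscle cells, and whole lung tissue carries their transcripts. Of 13 measured cardiac muscle genes 12 were lower, 5 were called and 10 had intervals apart from 1, with a median log2 difference of -0.50. Their FPKM values summed to 1994 with vehicle and 1363 with dabigatran.

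Cardiac troponin T (Tnnt2, chr1:135836315-135852268) was at 265.18 FPKM with vehicle and 158.05 FPKM with dabigatran (ratio 0.596, 0.570 to 0.624). The atrial myosin light chain gene Myl7 (chr11:5896637-5898782) was at 358.9 and 231.23 FPKM (ratio 0.644, 0.610 to 0.680), and Sln, the inhibitor of the calcium pump in atrial muscle, at 103.06 and 55.18 FPKM (ratio 0.535, 0.476 to 0.601). Myl4 (284.1 and 182.69 FPKM) and the troponin I gene Tnni3 (237.96 and 154.32 FPKM) were lower by a like factor. Nppa, the atrial natriuretic peptide gene, was at 79.95 and 76.46 FPKM, and the slow myosin gene Myh7 at 3.81 and 4.18 FPKM, so that not every member differed.

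A further 12 genes of heart and striated muscle, picked from the called genes and their relatives after their values were seen, were all lower, 10 of them called, with Tnnc1 at 73.34 and 38.44 FPKM (ratio 0.524, 0.466 to 0.589). With the cardiac list they made up 15 of the 67 genes called lower. The set was chosen for this direction, and other striated muscle genes did not share it. Of 6 measured skeletal muscle genes 5 were higher, with a median log2 difference of 0.10, and the skeletal actin gene Acta1 was called, with 4 reads with vehicle and 62 with dabigatran. Tnni2, the fast skeletal troponin I gene, was called higher as well, at 0.65 and 1.57 FPKM. For the cardiac list, the vehicle library was the highest. Tnnt2 was at 159.45 FPKM in the amiodarone library and at 144.49 FPKM in that of both drugs, near the dabigatran value, and vehicle was the highest of the 4 libraries in 12 of the 13 listed genes. The sums of the list in those 2 libraries were 1063 and 959.2 FPKM. The rank of vehicle is favoured in a list that is lower with dabigatran, and its share over all genes was not counted. With 1 library a group, the treatment and the tissue piece of each library cannot be told apart.

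**Figure D3:**
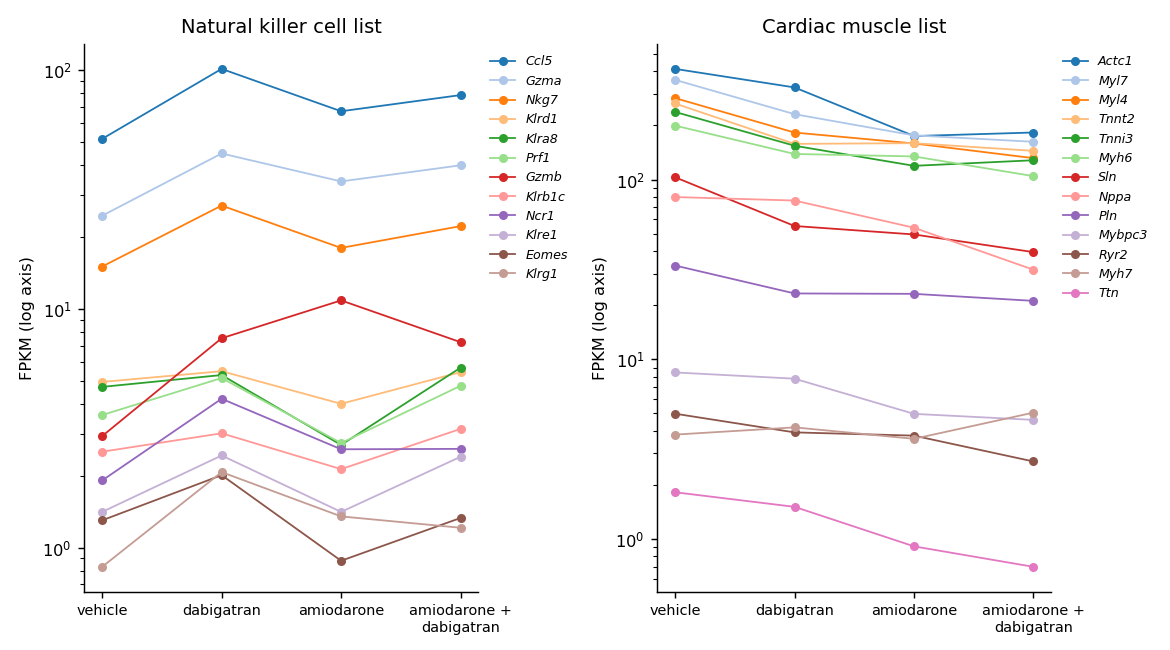
FPKM (log axis) of the measured natural killer cell list (left) and cardiac muscle list (right) in the 4 libraries, with a line joining the 4 values of each gene. The dabigatran value is the highest in 9 of the 12 natural killer cell genes, and the vehicle value is the highest in 12 of the 13 cardiac muscle genes. Both counts follow in part from the direction of each list, and the shares over all genes were not counted.

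The 5 measured liver plasma protein genes were also each highest of the 4 libraries in that of vehicle. As above, this rank is favoured in a list that is lower with dabigatran. Albumin (Alb) had 75 reads with vehicle, 5 with dabigatran, and 11 and 6 in the other 2 libraries. Apoa2 had 9 and 1 reads with vehicle and dabigatran. Without Trf and Hp, which lung cells also express, the liver plasma protein genes summed to 184 reads with vehicle and 72 with dabigatran (ratio 0.386, 0.290 to 0.509). With amiodarone the sum was 57 reads and with both drugs 46. Alb alone held 75 of the 184 and 5 of the 72 reads, so the ratio does not speak for each gene. This set was formed after the values were seen, and 7 of its 10 genes were below 1 FPKM with vehicle and dabigatran.

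Blood and immune cell lists other than the cytotoxic genes gave small differences. Of 12 neutrophil genes 11 were lower, with a median log2 difference of -0.24, and the calprotectin genes S100a8 (22.4 and 16.74 FPKM) and S100a9 (45.03 and 31.17 FPKM) were among them. Stfa2l1 was the 1 called, on 17 and 8 reads, with an interval that held 1. Of 12 B lymphocyte genes 10 were lower, with a median of -0.14 and none called. All 7 red blood cell genes were higher, with a median of 0.20. The alveolar macrophage list had a median of 0.15 and 1 called member, the scavenger receptor gene Marco, at 1.66 and 4.41 FPKM. The monocyte, dendritic, plasma and mast cell lists had medians of 0.02, -0.10, 0.04 and 0.06, with no member called.

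Among single genes of 10 FPKM or more, the metallothionein gene Mt2, whose product binds zinc and copper, was at 56.74 FPKM with vehicle and 28.53 FPKM with dabigatran (ratio 0.503, 0.430 to 0.586). Mt1 was at 109.86 and 73.26 FPKM (ratio 0.667, 0.602 to 0.739). The rest of the glucocorticoid-responsive list held no called gene, and Fkbp5 was at 4.5 and 4.51 FPKM. Cyp2e1, a cytochrome of ethanol and solvent metabolism, was at 10.98 and 22.57 FPKM, the 1 called gene among 16 of drug metabolism. Of 13 adipocyte genes 6 were higher and 7 lower, with a median log2 difference of -0.015. In that list 2 were called higher, Cfd at 62.81 and 106.41 FPKM and Adipoq at 4.13 and 6.85 FPKM. Plin1 (1.93 and 2.36 FPKM), Retn (6.86 and 6.78 FPKM) and Lipe (23.86 and 23.05 FPKM) were not called.

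The lowest ratio among genes of 10 FPKM or more was that of the histone gene Hist2h2aa2, at 12.87 and 2.81 FPKM. Its near-identical copy Hist2h2aa1 was at 44.26 and 50.3 FPKM, and the reads of both together gave a ratio of 0.916 (0.806 to 1.04). Reads that are not a whole number, a sign of division among similar genes, were found in 22 of the 60 genes called higher and 20 of the 67 called lower (16.1% of all genes, tolerance 0.005). The remaining genes with the largest differences at 10 FPKM or more were partly of this kind. Higher were Plac9b (98.27 and 180.6 FPKM), H2-Q8 (8.08 and 22.7 FPKM) and Gm9780 (10.21 and 18.71 FPKM), and lower were Rpl37rt (14.05 and 6.8 FPKM) and Insl3 (13.94 and 8.44 FPKM). With whole reads, Doc2g (12.99 and 7.01 FPKM), 4833427G06Rik (14.88 and 8.8 FPKM) and the muscle genes Myl3 (18.74 and 10.39 FPKM), Lmod2 (12.75 and 7.45 FPKM) and Tcap (104.92 and 65.6 FPKM) were lower.

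Differences also moved with transcript length. The genes were divided by effective length into 5 classes of equal number, whose median lengths were 1090, 1910, 2750, 3790 and 5980 bases. From the shortest to the longest class the median log2 difference was -0.06, -0.02, -0.004, 0.02 and 0.05. This was a shift of the classes and not of every gene. With dabigatran 35.7% of the shortest class and 65.1% of the longest were higher. Across genes, length and log2 difference had a Spearman correlation of 0.228. The shortest class also held 35 of the 60 genes called higher and 46 of the 67 called lower.

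Several lists of small differences lay at the ends of this range. The 22 ribosomal protein genes (median length 709 bases) were lower in 21, with a median of -0.16, which was -0.10 after the median of each length class was subtracted. The 20 nuclear respiratory chain genes (911 bases) were lower in 19, with a median of -0.11 and -0.08 after that step. The collagen chains (6190 bases) had 0.20 and 0.16, and the ciliated cell list -0.18 and -0.14. The natural killer cell list (1200 bases) had 0.63 and 0.69, the MHC class I list (1620 bases) 0.30 and 0.33, and the cardiac muscle list (1410 bases) -0.50 and -0.49. The part of length in the small differences was not tested.

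**Figure D4:**
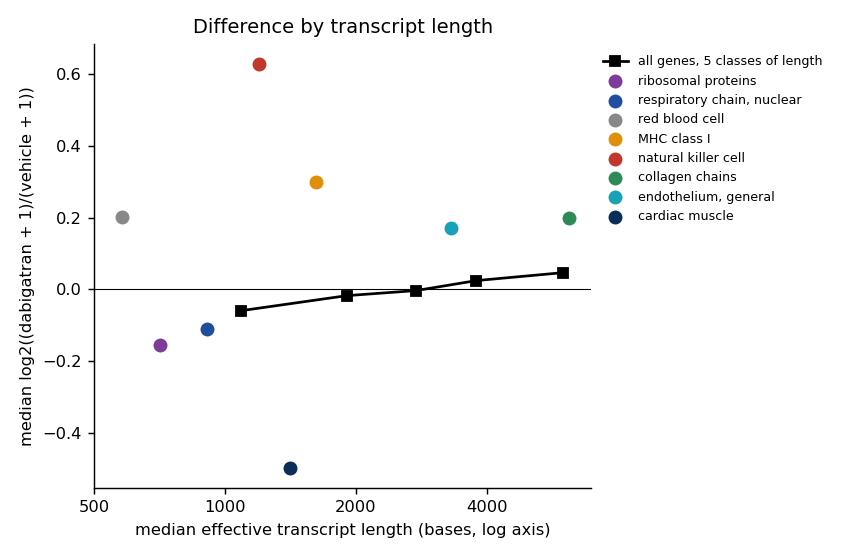
Median log2 difference between the dabigatran and vehicle libraries against median effective transcript length (log axis), for all genes in 5 classes of length (black squares) and for 8 gene lists (coloured points). The line goes from -0.06 in the shortest to 0.05 in the longest class, and the natural killer cell and cardiac muscle lists lie far from it at 0.63 and -0.50.

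The library of both drugs against that of amiodarone holds dabigatran too and shares no library with the comparison above. Of the 60 genes called higher with dabigatran alone, 29 (48.3%) were higher there and 31 lower, whereas 57.9% of all genes were higher. Past 1.5-fold, 7 of the 60 went the same way and 15 the other way. Of the 67 called lower, 39 (58.2%) were lower there, where 41.7% of all genes were lower. Among the 24 of these with 5 FPKM or more in either library, 20 were lower in the second pair, which were 10 of 13 genes of heart and striated muscle and 10 of 11 others. Of all 9896 genes at that level 41.6% were lower there. Across genes, which are not independent replicates, the log2 differences of the 2 pairs had a Pearson correlation of -0.09 and a Spearman correlation of -0.10.

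The lists differed in this respect. The natural killer cell list had a median of 0.30 in the second pair, with 10 of 12 genes higher, and the level of Ccl5 was 67.27 FPKM after amiodarone and 78.64 FPKM after both drugs. The 6 members called in the first pair were all below this list median. Their log2 differences were 0.29 (Nkg7), 0.22 (Ccl5), 0.22 (Gzma), 0.004 (Ncr1), -0.09 (Klrg1) and -0.52 (Gzmb). Klrg1 and Gzmb thus went the other way, Gzmb at 10.85 and 7.25 FPKM. The further 5 cytotoxic genes, picked after their values were seen, had a median of 0.02, with 3 higher and 2 lower. The MHC class I genes were lower in 14 of 14 in the second pair, with a median of -0.19, and B2m was at 2601 and 2081 FPKM. The cardiac list had a median of -0.14. The amiodarone treatment of both libraries of that pair is a further difference from the vehicle pair, and its part was not tested.

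**Figure D5:**
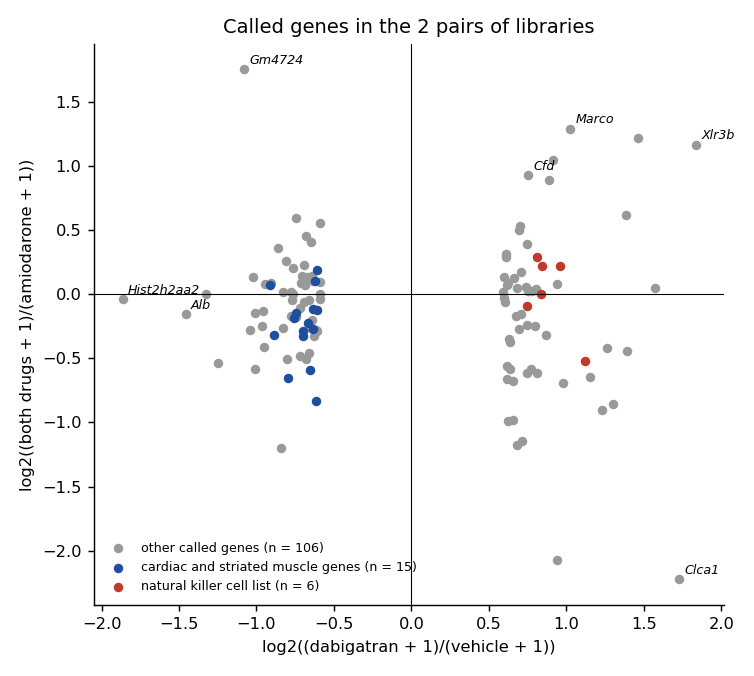
Log2 difference of the 127 called genes in the dabigatran and vehicle pair (horizontal axis) and in the pair of both drugs and amiodarone (vertical axis), each point 1 gene. Points on the right spread to both sides of the horizontal line, with 29 above and 31 below it.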

How the data were processed

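Poly(A) RNA of mouse lung was sequenced by DNBseq. The authors mapped reads with HISAT 2.0.4 and Bowtie2 2.2.5 to GRCm38.p6 and estimated levels with RSEM 1.2.8. The deposited table gives per gene and library an estimated count (expected count) of reads and a normalized value that behaves as FPKM on a linear scale, which is inferred from the values. Another 8 columns hold means over libraries by the authors and were not used. Libraries were grouped by their labels.

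FPKM was used as log2(FPKM + 1) for genes of 1 FPKM or more in either library. Ratios were given exact Clopper-Pearson intervals at 95% from the rounded counts, rescaled to FPKM. In the vehicle library a count of 0 allows up to 3 reads, 1.71e-05% of its total. Gene identifiers matched RefSeq (GRCm38.p6) for 99.4% of genes, which gave the coordinates and promoters. No mitochondrially encoded gene was listed. The members and gene lists were chosen with earlier results of these data known. Genes were named by rule: the 15 largest differences each way at 10 FPKM or more with an interval apart from 1, called and up to 4 most abundant members of each list, and all measured members of the thrombin receptor, PDGF and prodrug lists. Others are named as examples, after their values were seen. Motifs, the added gene sets and the sums of gene families were also chosen after seeing values, and a 7-letter form of the RUNX and T-box motifs and the letters TTCCTC were looked at too. Alternatives were a pseudocount of 0.1, a filter of 5 FPKM or none, rescaling by the median ratio (factor 1.0), differences beyond counting error only, and, added after seeing the data, subtraction of the median by length and omission of genes with reads that are not whole or of heart muscle genes. The procedure was tested on simulated data. Python 3.11.15, pandas 2.3.3 and scipy 1.17.1 were used.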

Additional observations from a re-analysis of the deposited data

Results flagged for a closer look

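In several gene groups the dabigatran and vehicle pair went one way and the pair of both drugs and amiodarone the other. Each such difference rests on 1 library a group and was not tested. The red blood cell list had a median log2 difference of 0.20 in the first pair and -1.26 in the second, and its summed FPKM was 15820 with vehicle, 17580 with dabigatran, 21460 with amiodarone and 8557 with both drugs. The interferon response list had medians of 0.23 and -1.15, and the interferon-gamma GTPases 0.25 and -0.47. The goblet and gland list had 0.29 and -0.33.

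Among single genes of 10 FPKM or more, Clca1 had log2 differences of 1.73 and -2.22, at 3.53, 13.99, 8.72 and 1.08 FPKM with vehicle, dabigatran, amiodarone and both drugs. Ifi27l2a had 0.72 and -1.15, and Cyp2e1 had 0.98 and -0.69. Gm9780, whose reads are partly divided among similar genes, had 0.81 and -0.61.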

How the results depend on the processing

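With 1 library a group no replicate could be left out. No paired analysis was possible because each group holds 1 library. The counts of called genes depended on the treatment of low values. With a pseudocount of 0.1 FPKM, 172 genes were called higher and 184 lower at 1.5-fold, and 39 and 48 at 2-fold, in place of 60, 67, 12 and 9. With a filter of 5 FPKM these were 27, 24, 6 and 2. Omitting genes with reads that are not whole left 38 called higher, and subtracting the median by length left 5 lower at 2-fold. Without a filter, after rescaling and beyond counting error only, each count stayed within 1.5 times of its value. These settings could change little. The rescaling factor was 1.0, and intervals already lay apart from 1 in 60 of 60 and 64 of 67 called genes. With 1 FPKM added, a gene below 1 FPKM in both libraries cannot reach 2-fold.

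In the second pair, 88 of the 172 and 10 of the 27 called higher lay on the same side, as did 95 of the 184 and 20 of the 24 called lower. Of those 24 genes 13 were of heart or striated muscle. Of the 60 lists with 3 or more measured members, none with a median beyond 0.1 changed direction with the other pseudocount, the filter of 5 FPKM, rescaling or the length step. The median of the liver list, -0.34, was -0.05 with that filter and -0.59 with that pseudocount. The ratios of the 30 leading genes stayed within their intervals after rescaling and with reads scaled to library totals. Neither step could move them far. The rescaling factor was 1.0, and FPKM values are already scaled for depth and come from the same reads. The cause of the shifts in counts and medians was not tested. Depth limited genes such as Gzmk and Alb, which had 1 and 5 reads in 1 library.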

Other observations

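Some gene groups that belong to no cell type above also differed between the dabigatran and vehicle libraries. Of 4 measured Xlr genes, X-linked lymphocyte-regulated genes, 3 were called higher, with Xlr3b at 1.15 FPKM with vehicle and 6.67 FPKM with dabigatran, 1.76 FPKM with amiodarone and 5.21 FPKM with both drugs. The reads of the near-identical family summed to a ratio of 2.84 (2.28 to 3.54), and Xlr3a was at 1.23 and 0.75 FPKM with vehicle and dabigatran. The Plac9 pair summed to 156.7 and 265.9 FPKM, and the Tmem254 genes to 61.68 and 93.16 FPKM. These families were chosen after their values were seen.

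Of 23 immediate early genes 17 were higher with dabigatran, with a median log2 difference of 0.13, or 0.08 after the length step. Intervals lay apart from 1 in 11 higher and 4 lower genes. In the pair of both drugs and amiodarone 22 of the 23 were lower, with a median of -0.33. Egr3, a growth-response transcription factor, was the 1 called, at 2.69 and 7.2 FPKM, and the nuclear receptor genes Nr4a1, Nr4a2 (3.42 and 5.11 FPKM) and Nr4a3 (3.43 and 5.31 FPKM) were among the higher. Of 20 clock genes 15 were lower, with a median of -0.16 and none called, among them Per2 (8.34 and 5.97 FPKM) and Dbp (139.57 and 115.6 FPKM). Of 18 cell cycle genes 14 were higher, and intervals lay apart from 1 in 6 higher and 1 lower gene. The median of 0.19 was 0.03 with a filter of 5 FPKM. Birc5, an inhibitor of apoptosis made in dividing cells, was called at 1.57 and 3.32 FPKM, on 36 and 62 reads that were not whole. Top2a was at 1.41 and 2.48 FPKM.

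Some genes stood apart at low levels. Grp, a peptide of lung neuroendocrine cells, had 99 reads with vehicle and 39 with dabigatran. The glutathione transferase gene Gsta1 was at 1.78 and 0.17 FPKM, the 1 called of 19 antioxidant genes, and the abundant Gpx3 was at 1092 and 1407 FPKM. The stress, hypoxia, heat shock, cholesterol and fatty acid lists had medians between -0.01 and 0.07 with no called member, and the 20 lysosome genes had a median of 0.13. Of 18 complement genes Cfd alone was called, with a median of 0.11, and the mesothelium and nerve lists had medians of 0.01 and -0.05.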
